A study of Mus musculus with 21 samples.

Results

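The genes described here are 7 members of the vascular endothelial growth factor (VEGF) family, chosen by gene symbol: the ligands Vegfa, Vegfb, Vegfc and Pgf and the receptors Kdr, Flt1 and Flt4. All 7 were found, as 7 of 27968 gene rows in a table of sorted cells and as 7 of 22899 gene rows in a table of cocultured cells. The values came from RNA-seq of 21 mouse libraries in 7 groups of 3, from a study that made blood stem cell-like cells out of mouse embryonic stem cells. The 5 kinds of sorted cell filled 1 table, and total cells of a coculture filled the other. The mESC group was undifferentiated 129/ola embryonic stem cells sorted for the surface antigen SSEA-1. D5-LSKCD201+ and D5-LSKCD201- were 129/ola cells derived from pluripotent stem cells, taken on day 5 of growth on OP9 after induction in a self-assembling peptide gel (3D), and sorted with antibodies to lineage antigens, c-kit and CD201, the endothelial protein C receptor. LSK stands for lineage-negative, Sca-1-positive and c-kit-positive, the surface phenotype of mouse blood stem and progenitor cells. FL-LSKCD201+ cells were sorted from the fetal liver of C57BL/6 embryos at mid-gestation and BM-LSKCD201+ cells from the bone marrow of adult C57BL/6 mice. The strain recorded for the samples therefore differs between the cell culture groups and the animal groups, and its part cannot be told apart from that of the group. The study's methods, however, name both 129/ola and C57BL/6 mice as sources of its embryonic stem cells. The coculture groups were total 129/ola cells on day 5, grown after the 3D stage on OP9 (3D+OP9) or on a coating of gelatin (3D+0.1% gelatin). OP9 is a mouse bone marrow stromal line, used here after mitomycin C treatment, which stops division. The medium of the OP9 stage listed stem cell factor, interleukin 3 and Flt3 ligand, with no VEGF named. Whether OP9 cells were left out of the total cells is not given in the sources used here.

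VEGF proteins are secreted dimers that bind receptor tyrosine kinases on endothelial cells and their precursors. Vegfa binds Kdr, also called Flk1 or VEGFR2, which carries most of the growth and survival signal, and it binds Flt1 (VEGFR1) more tightly but with weak kinase output, so that Flt1 and its secreted form are known to hold ligand away from Kdr. Vegfb and Pgf (placental growth factor) bind Flt1, and Vegfc binds Flt4 (VEGFR3) and, after cleavage, Kdr. In the embryo Kdr marks the mesoderm from which both blood and endothelium arise, and the loss of Kdr prevents both from forming. Flt4 is found on embryonic vessels and later on lymphatic vessels.

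Levels are in FPKM, the number of fragments scaled to the length of the transcript and to the fragments mapped in the library, so that levels of different genes in a library can be set side by side. Differences are log2 fold changes on the scale log2(FPKM + 1), which understates the change of low genes. The limma test took in genes averaging 0.5 FPKM or more across the 6 libraries of a comparison, and a gene was called higher or lower with a Benjamini-Hochberg adjusted p under 0.05 and a log2 fold change of at least 1 in either direction. The values summed to 508622 to 620332 FPKM in the sorted libraries and to 483263 to 508307 FPKM in the coculture libraries. Absolute depth is unknown, and the steps of low values put the relative depth of the sorted libraries at 0.890 to 1.31 times that of the first mESC library. The study calls the sorted replicates biological, and its captions give the values of the day 5 sorted cells as coming from independent experiments. For the mESC, fetal liver and bone marrow libraries, neither it nor the labels name separate cultures or animals. The p-values measure the spread between these libraries. In 4 groups a single library stood apart from the other 2, namely 3D+OP9 replicate 3, BM-LSKCD201+ replicate 1, FL-LSKCD201+ replicate 1 and D5-LSKCD201- replicate 2. Of the sort antigens, Procr, which encodes CD201, averaged 59.7 FPKM in D5-LSKCD201+ against 3.48 FPKM in D5-LSKCD201-. Ptprc, which encodes the pan-leukocyte antigen CD45, averaged 0.409 and 0.633 FPKM in the 2 day 5 groups, against 43.5 FPKM in FL-LSKCD201+ and 66.8 FPKM in BM-LSKCD201+, so this blood marker, which was not a sort antigen, was near 0 in both day 5 groups.

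The promoters of Kdr and Flt1, whose balance differed between the day 5 populations, of Vegfc, and of Vegfa as the main ligand of Kdr are shown as the 250 bases before the RefSeq start, in build GRCm38.p6, on the strand of the gene, with GGAA or its complement TTCC in capitals. GGAA is the core that ETS factors such as Etv2, Fli1 and Ets1 bind. The Kdr window is chr5:75978456-75978705 and the Flt1 window chr5:147726012-147726261, both on the minus strand. The Vegfc window is chr8:54077282-54077531 on the plus strand, and the window before the first Vegfa start is chr17:46032378-46032627 on the minus strand.
Kdr: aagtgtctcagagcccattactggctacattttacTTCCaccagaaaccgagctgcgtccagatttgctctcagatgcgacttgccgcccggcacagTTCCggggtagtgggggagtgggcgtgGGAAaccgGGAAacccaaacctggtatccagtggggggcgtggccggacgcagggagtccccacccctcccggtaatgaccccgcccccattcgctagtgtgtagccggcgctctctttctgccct
Flt1: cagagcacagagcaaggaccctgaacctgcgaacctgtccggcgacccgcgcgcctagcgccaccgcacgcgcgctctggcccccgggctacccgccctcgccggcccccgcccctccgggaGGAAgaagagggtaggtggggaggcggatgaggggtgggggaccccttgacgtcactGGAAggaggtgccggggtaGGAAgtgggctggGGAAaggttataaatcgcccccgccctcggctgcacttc
Vegfc: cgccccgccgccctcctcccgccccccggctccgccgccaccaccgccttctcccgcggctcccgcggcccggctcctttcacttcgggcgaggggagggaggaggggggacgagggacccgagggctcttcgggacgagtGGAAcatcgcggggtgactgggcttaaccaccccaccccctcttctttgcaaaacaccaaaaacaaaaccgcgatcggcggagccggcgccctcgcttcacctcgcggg
Vegfa: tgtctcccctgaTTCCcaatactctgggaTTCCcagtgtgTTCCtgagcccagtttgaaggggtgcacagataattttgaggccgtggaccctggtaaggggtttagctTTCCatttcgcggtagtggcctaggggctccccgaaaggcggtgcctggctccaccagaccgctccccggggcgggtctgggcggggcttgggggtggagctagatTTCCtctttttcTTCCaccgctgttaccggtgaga

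On both strands together, GGAA occurred 4 times in the Kdr window, 4 times in Flt1, 1 time in Vegfc and 6 times in Vegfa. That motif is common, with at least one match in 93.4% of 32851 RefSeq promoter windows of the same length. The longer match CCGGAA, which contains GGAA, was present in 12.0% of windows, among them Kdr with 1 match and none of the other 3. The Flt4 window, with 2 GGAA and no CCGGAA, is not shown because all 250 bases lie in an annotated exon. The windows were rich in G and C, at 61.6% for Kdr, 70.4% for Flt1, 71.6% for Vegfc and 59.2% for Vegfa, against a median of 52.4% over all windows. Flt1 held the only TATAAA, a match found in 12.4% of windows, and the SP1 core GGGCGG, found in 32.7%, occurred 2 times in Kdr, 3 times in Flt1, 2 times in Vegfc and 2 times in Vegfa. The letters GATAA of a GATA site, in 22.6% of windows, occurred once, in Vegfa. ACAAT, a SOX core in 27.7% of windows, and ACGTG, a hypoxia response core in 16.6%, were not in these 4 windows, which says nothing of sites elsewhere. The window before another Vegfa start, not shown, held 1 ACGTG, and 218 of its 250 bases lie in an annotated exon. In the GENCODE annotation of GRCm38, all 7 are protein-coding genes. Kdr (ENSMUSG00000062960, gene number 16542 in the coculture table) spans chr5:75932827-75978458 and Flt1 (ENSMUSG00000029648, 14254) spans chr5:147561604-147726011. Flt4 (ENSMUSG00000020357, 14257) spans chr11:49609263-49652739. The ligands lie apart from each other, Vegfa (ENSMUSG00000023951, 22339) at chr17:46016993-46032369, Vegfb (ENSMUSG00000024962, 22340) at chr19:6982473-6987651, Vegfc (ENSMUSG00000031520, 22341) at chr8:54077606-54187096 and Pgf (ENSMUSG00000004791, 18654) at chr12:85166635-85177790.

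The 3 receptors were high in D5-LSKCD201+ cells and at or under 1.06 FPKM in each fetal liver, bone marrow and embryonic stem cell library. Of the ligands, Vegfa, Vegfb and Vegfc were at or above 2.88 FPKM in each sorted library, and Pgf was low in fetal liver and embryonic stem cells. Kdr, the main signalling receptor, was at 143, 134 and 133 FPKM in the D5-LSKCD201+ libraries and at 7.45, 5.72 and 7.69 FPKM in D5-LSKCD201-. In FL-LSKCD201+ it was at 0.924, 1.06 and 0.813 FPKM, in BM-LSKCD201+ at 0.248, 0.749 and 0.773 FPKM, and in mESC at 0.218, 0.169 and 0.159 FPKM. Each D5-LSKCD201+ library was above each library of the other 4 groups, D5-LSKCD201- held the second place without overlap, and mESC lay lowest, below each fetal liver and bone marrow library. Kdr ranked 741 of 21295 genes above 0 in D5-LSKCD201+ and 12985 of 20326 in BM-LSKCD201+. An antibody to Flk1, the protein of Kdr, was not among those listed for the sort.

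Flt1, the high-affinity receptor, was at 69.4, 72.9 and 71.0 FPKM in D5-LSKCD201+ and at 28.7, 22.9 and 26.0 FPKM in D5-LSKCD201-. It was at 0.562, 0.304 and 0.381 FPKM in FL-LSKCD201+, at 0.0728, 0.0886 and 0.0983 FPKM in BM-LSKCD201+, and at 0.140, 0.353 and 0.218 FPKM in mESC. Both day 5 groups thus stood clear of the other 3, fetal liver and mESC overlapped, and bone marrow lay lowest. The table gives a value per gene, so the membrane and secreted forms of Flt1 were not separated. Flt4, the Vegfc receptor, was at 18.5, 19.2 and 19.1 FPKM in D5-LSKCD201+ and at 0.912, 0.50 and 1.01 FPKM in D5-LSKCD201-. In mESC it was at 0.634, 0.561 and 0.818 FPKM, in BM-LSKCD201+ at 0.247, 0.169 and 0.215 FPKM, and in FL-LSKCD201+ at 0.0919, 0.175 and 0.232 FPKM. Among the sorted libraries, only those of D5-LSKCD201+ had Flt4 above 1.01 FPKM, the D5-LSKCD201- and mESC libraries overlapped, and so did those of bone marrow and fetal liver.

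**Figure D1:**
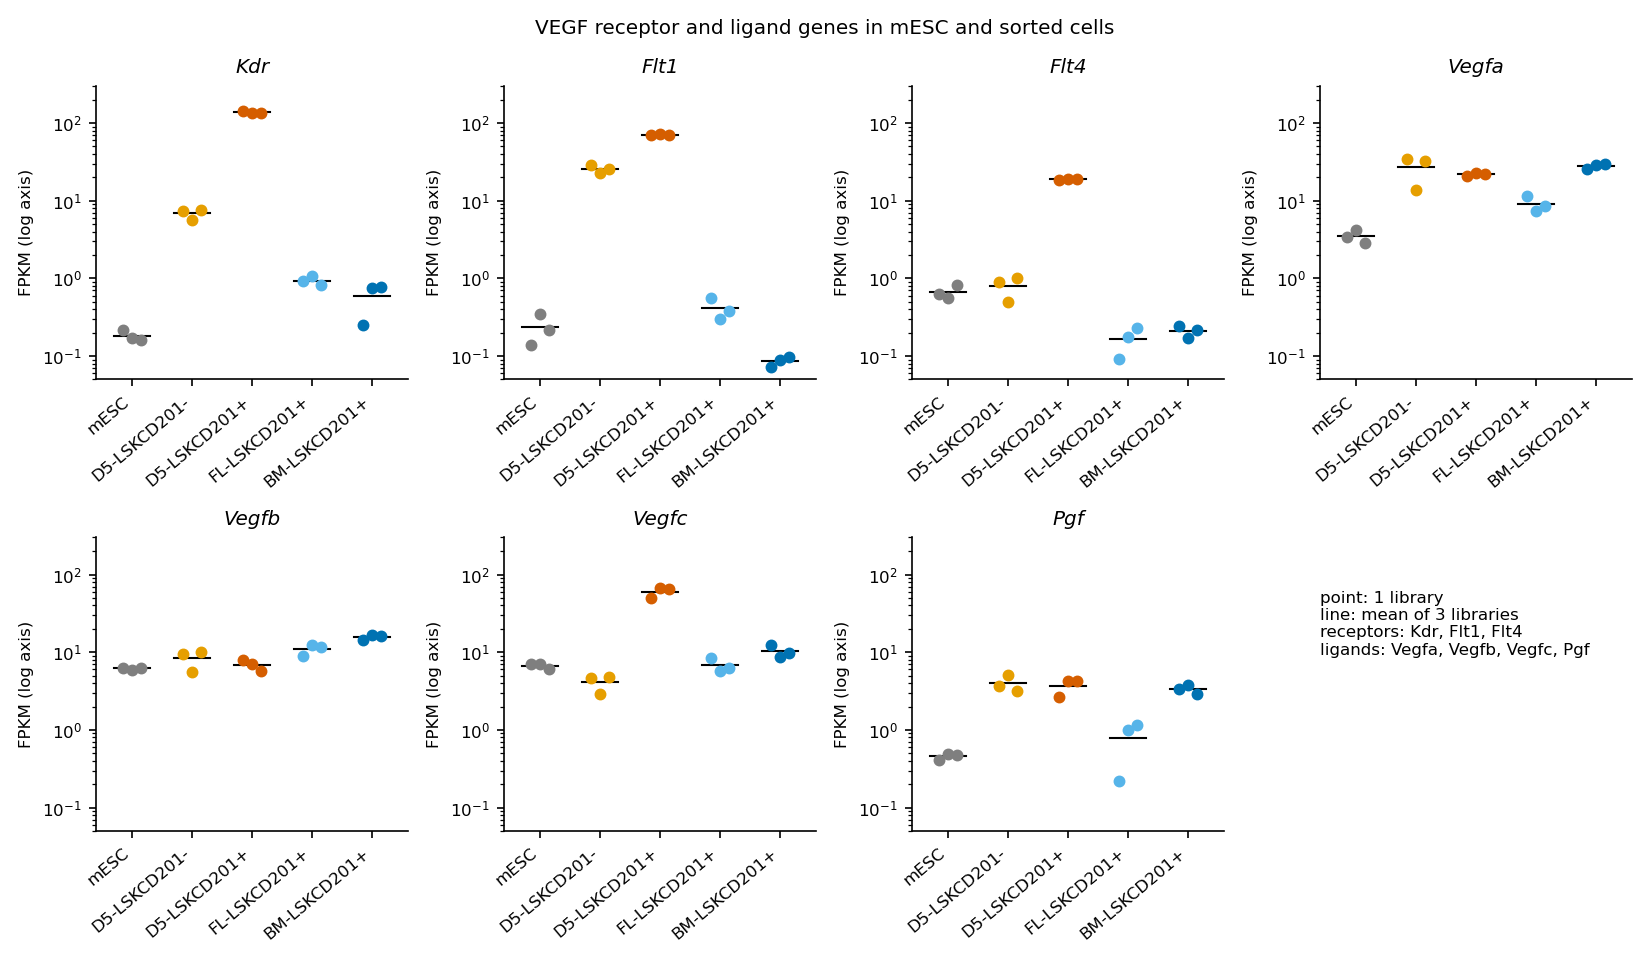
FPKM of the 7 genes in the 15 sorted libraries, on a log axis, with a point for each library and a line at each group mean of 3. Kdr, Flt1 and Flt4 are highest in the 3 D5-LSKCD201+ libraries, with means of 137, 71.1 and 18.9 FPKM, while Vegfa and Vegfb lie within a narrower range.

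Vegfc, the ligand of Flt4, was highest in D5-LSKCD201+, as the receptors were, but lowest in D5-LSKCD201-. It was at 49.2, 66.9 and 64.3 FPKM in D5-LSKCD201+ and at 4.6, 2.92 and 4.74 FPKM in D5-LSKCD201-. The other groups lay between, with 12.4, 8.74 and 9.69 FPKM in BM-LSKCD201+, 8.46, 5.67 and 6.30 FPKM in FL-LSKCD201+ and 7.0, 7.12 and 6.07 FPKM in mESC. Fetal liver and mESC overlapped, and bone marrow lay just above them. Vegfa, the main ligand of Kdr, had another order. It was at 25.7, 28.8 and 29.5 FPKM in BM-LSKCD201+, at 34.5, 13.6 and 32.7 FPKM in D5-LSKCD201-, and at 21.0, 22.8 and 22.3 FPKM in D5-LSKCD201+. FL-LSKCD201+ had 11.5, 7.48 and 8.52 FPKM and mESC 3.41, 4.25 and 2.88 FPKM. The spread of D5-LSKCD201- ran across both neighbouring groups, with its replicate 2 low, and mESC lay below all other libraries.

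Vegfb, a ligand of Flt1, ranged from 5.56 to 16.4 FPKM over the 15 sorted libraries. It was at 14.2, 16.4 and 16.4 FPKM in BM-LSKCD201+, at 8.95, 12.2 and 11.5 FPKM in FL-LSKCD201+ and at 9.41, 5.56 and 10.1 FPKM in D5-LSKCD201-. D5-LSKCD201+ had 7.94, 7.14 and 5.75 FPKM and mESC 6.28, 5.90 and 6.34 FPKM. Bone marrow was above all other groups, and the remaining neighbours in the order overlapped. Pgf, the other ligand of Flt1, was at 2.68, 4.25 and 4.23 FPKM in D5-LSKCD201+, at 3.70, 5.08 and 3.19 FPKM in D5-LSKCD201- and at 3.40, 3.80 and 2.89 FPKM in BM-LSKCD201+. It was at 0.220, 1.01 and 1.16 FPKM in FL-LSKCD201+ and at 0.415, 0.492 and 0.472 FPKM in mESC. The first 3 groups overlapped and lay above the other 2, where a low first fetal liver library overlapped with mESC.

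Within the day 5 LSK cells, the comparison of CD201+ with CD201- cells asks what the antigen separates. All 3 receptors and Vegfc were higher in CD201+ cells, and the other 3 ligands were not called. Kdr was 19.7 times as high in the CD201+ mean (137 ± 5.60 against 6.95 ± 1.08 FPKM, SD, n = 3), a log2 fold change of 4.12 (SE 0.11, limma adjusted p 1.7e-07). For Flt4 the ratio of means was 23.5 (18.9 ± 0.40 against 0.806 ± 0.269 FPKM), with a log2 fold change of 3.48 (SE 0.13, limma adjusted p 7.1e-07). Flt1 differed less, by a ratio of 2.75 (71.1 ± 1.76 against 25.8 ± 2.90 FPKM) and a log2 fold change of 1.43 (SE 0.09, limma adjusted p 6.8e-06). Vegfc was 14.7 times as high (60.2 ± 9.53 against 4.09 ± 1.01 FPKM), with a log2 fold change of 3.60 (SE 0.18, limma adjusted p 2.9e-06). These 4 of 7 genes were called higher and none lower, where 24.7% of the 13691 genes tested were called, 10.8% as higher and 13.9% as lower. The same 4 had groups that did not overlap, as did 73.6% of all genes tested. Vegfa had a log2 fold change of -0.17 (95% interval -0.94 to 0.59, limma adjusted p 0.657), Vegfb of -0.21 (-0.72 to 0.30, 0.417) and Pgf of -0.08 (-0.54 to 0.38, 0.732). The Vegfa value depended on 1 library: without D5-LSKCD201- replicate 2 it was -0.59 with a limma adjusted p of 4.1e-05, still under the fold threshold.

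**Figure D2:**
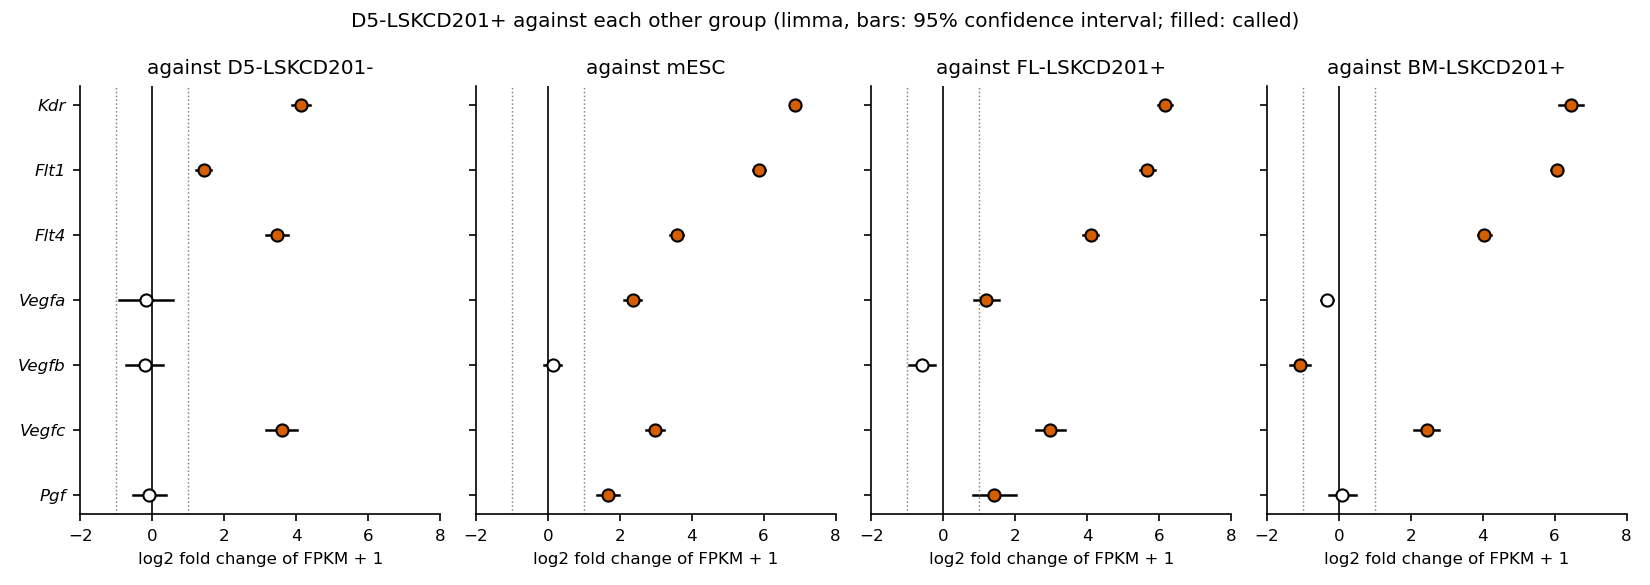
Log2 fold changes of the 7 genes on the log2(FPKM + 1) scale with 95% intervals, for the main comparisons; filled points passed both thresholds, open points did not, and dotted lines mark a log2 fold change of 1 in either direction. Kdr, Flt1, Flt4 and Vegfc lie to the right in D5-LSKCD201+ against D5-LSKCD201-, at 4.12, 1.43, 3.48 and 3.60, with Vegfa, Vegfb and Pgf about 0.

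The balance of the receptors differed between the 2 day 5 populations. The Flt1 to Kdr ratio of FPKM was 0.484, 0.543 and 0.534 in the D5-LSKCD201+ libraries and 3.84, 4.0 and 3.38 in D5-LSKCD201-. Flt1 was thus the lower of the pair in each CD201+ library and the higher in each CD201- library. The mean log2 ratio differed by -2.84, with an exact two-sided permutation p of 0.1, the smallest that 3 against 3 allows. Of the summed receptor level, Kdr made up 60.3% ± 1.46 in D5-LSKCD201+ and 20.7% ± 1.33 in D5-LSKCD201- (SD, n = 3). Flt1 made up 31.3% ± 1.16 and 77.0% ± 1.87, and Flt4 8.35% ± 0.312 and 2.36% ± 0.597, in the same order. The sum itself was 227 FPKM in D5-LSKCD201+, 33.6 FPKM in D5-LSKCD201-, 1.51 FPKM in FL-LSKCD201+, 1.09 FPKM in mESC and 0.887 FPKM in BM-LSKCD201+. Receptor shares in the last 3 groups rest on levels near the floor and are not read. Of the summed ligand level, Vegfc made up 64.6% in D5-LSKCD201+ and 9.64% in D5-LSKCD201-, where Vegfa made up 60.2%. Vegfa was also the leading ligand in BM-LSKCD201+ with 48.8%. Vegfb led in FL-LSKCD201+ with a mean of 39.6%, although Vegfa led in its replicate 1, and in mESC Vegfc with 39.8% stood beside Vegfb with 36.7%. No test was run on the shares.

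**Figure D3:**
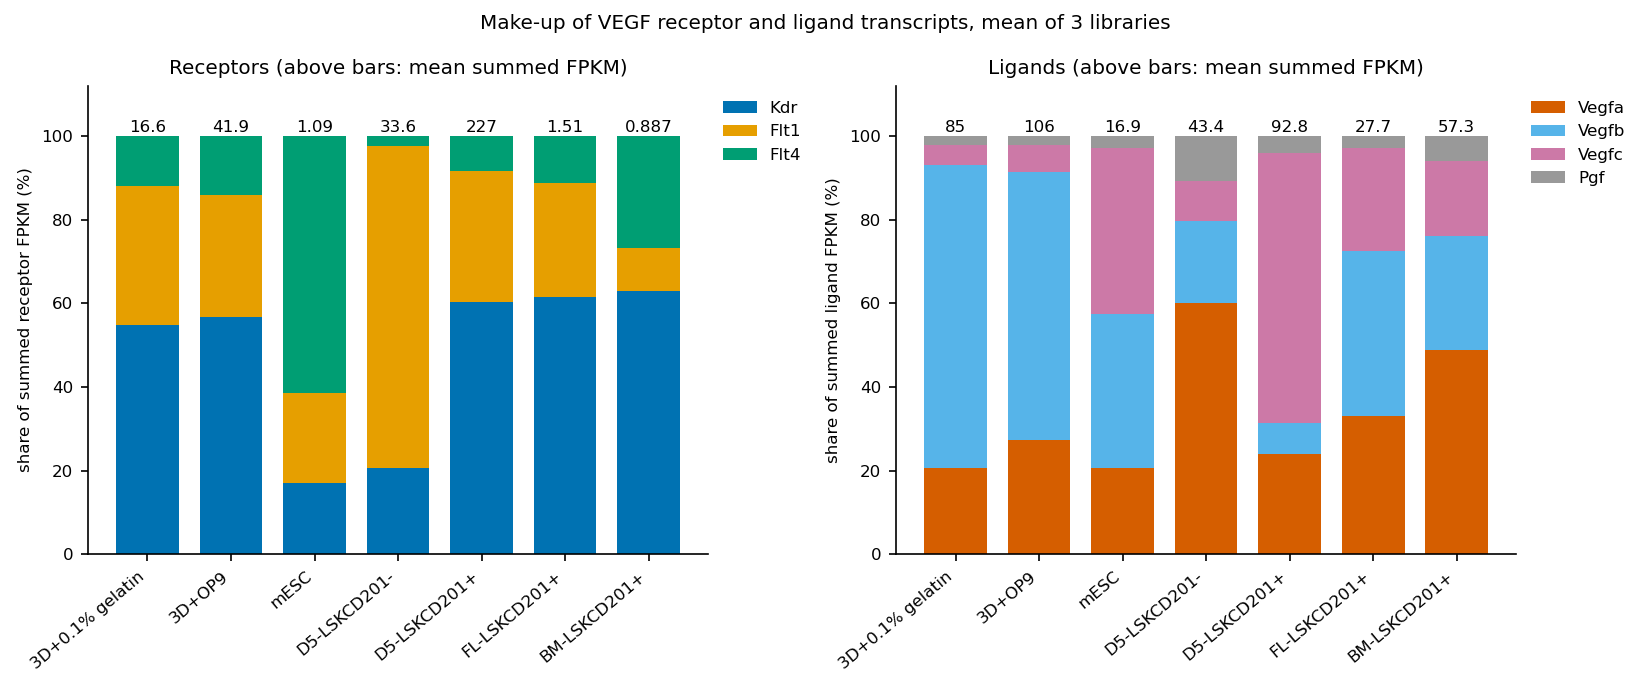
Mean share of each receptor in the summed receptor FPKM and of each ligand in the summed ligand FPKM, in percent, over 3 libraries for each of the 7 groups. Flt1 takes 77.0% of the D5-LSKCD201- receptor sum, against 31.3% for D5-LSKCD201+, and Vegfc takes 64.6% of the ligand sum in D5-LSKCD201+.

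Markers of endothelial cells moved with the receptors. The summed level of 11 endothelial markers was 2900 to 3002 FPKM in D5-LSKCD201+ and 155 to 165 FPKM in D5-LSKCD201-, and 11 of 11 were called higher, none being at 0. Cdh5, the VE-cadherin of endothelial junctions, was at 70.8 ± 3.02 FPKM in D5-LSKCD201+ and 2.31 ± 0.205 FPKM in D5-LSKCD201-. The 7 markers of pluripotent cells summed to 22.7 to 30.4 FPKM in D5-LSKCD201+ and to 3481 to 3909 FPKM in D5-LSKCD201-, with 6299 to 6843 FPKM in mESC, and 7 of 7 were called lower. Markers of trophoblast, a tissue known to make soluble Flt1, summed to 1.0 to 1.52 FPKM in D5-LSKCD201+ and to 31.0 to 64.1 FPKM in D5-LSKCD201-, with 4 of 4 tested called lower. Of 4 tested markers of visceral endoderm and hepatoblasts 3 were lower, among them Foxa2 at 0.656 against 17.9 FPKM and Apoa1 at 0.132 against 4.47 FPKM, although the sums overlapped at 116 to 130 FPKM and 118 to 126 FPKM. In each D5-LSKCD201+ library only 1 of the 6 listed genes reached 1 FPKM, against 4 in each D5-LSKCD201- library. That gene was Sox17, which made up nearly all of the D5-LSKCD201+ sum and is also in the list of Kdr factors read below. Red cell markers gave 1 higher and 3 lower of 6 tested, stromal markers 2 higher and 1 lower of 9, and blood markers 2 higher and 1 lower of 7, with blood sums of 78.5 to 84.0 FPKM and 28.7 to 29.1 FPKM. The part of these cells in the receptor and ligand levels was not tested, and in bulk samples fewer cells of a type and less RNA per cell cannot be told apart. In FL-LSKCD201+ and BM-LSKCD201+ the endothelial list summed to 520 to 577 and 418 to 457 FPKM, led by Egfl7, Esam and Eng, which blood stem cells also express, while Cdh5 was at 1.13 ± 0.441 and 0.0359 ± 0.0328 FPKM and the 3 receptors were at or under 1.06 FPKM.

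**Figure D4:**
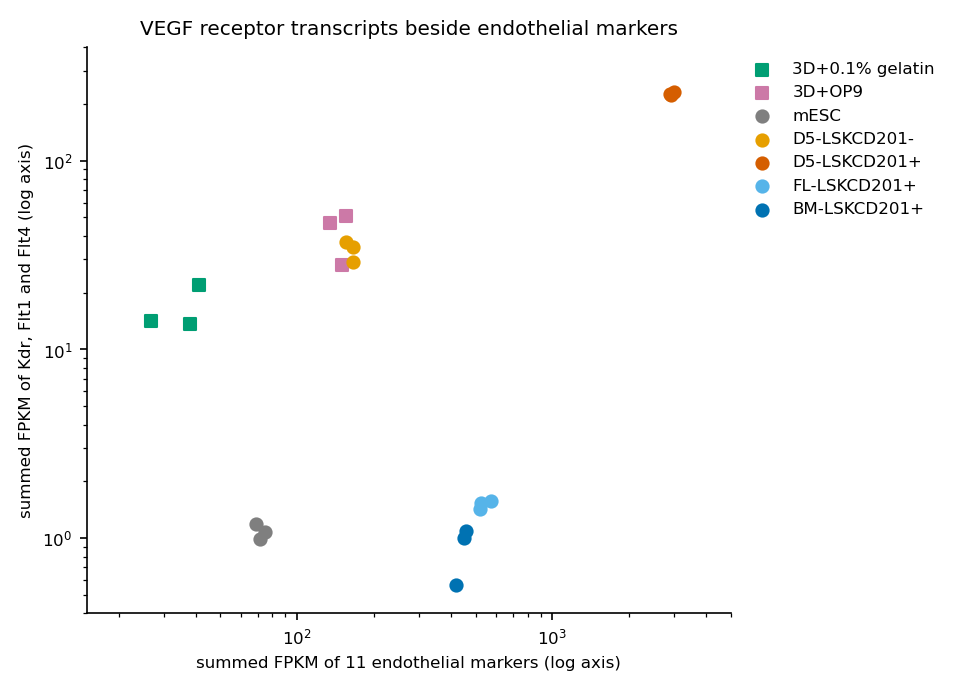
Summed FPKM of Kdr, Flt1 and Flt4 against the summed FPKM of 11 endothelial markers, each on a log axis, with a point for each of the 21 libraries; the 2 tables were normalized separately. The D5-LSKCD201+ libraries sit at the top right, at 2900 to 3002 FPKM of markers, and the fetal liver and bone marrow libraries sit low at 418 to 577 FPKM.

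Set against the blood stem cell populations of the animal, D5-LSKCD201+ cells had more of each receptor. Against FL-LSKCD201+, the log2 fold changes were 6.16 for Kdr (SE 0.08), 5.67 for Flt1 (SE 0.09) and 4.10 for Flt4 (SE 0.08), with limma adjusted p of 2.7e-08, 4.3e-08 and 7.7e-08. Vegfc was higher by 2.97 (SE 0.17), Pgf by 1.42 (SE 0.25) and Vegfa by 1.2 (SE 0.15), with limma adjusted p of 5.9e-06, 0.00185 and 0.000293. Vegfb had a log2 fold change of -0.58 (limma adjusted p 0.0109), under the fold threshold. These 6 of 7 genes were called higher, where 34.7% of 13627 genes were called, 15.1% as higher and 19.6% as lower. Against BM-LSKCD201+, Kdr was higher by 6.46 (SE 0.14), Flt1 by 6.05 (SE 0.06), Flt4 by 4.04 (SE 0.08) and Vegfc by 2.44 (SE 0.15), with limma adjusted p from 1.0e-09 for Flt1 to 3.0e-06 for Vegfc. Vegfb was lower by 1.08 (log2 fold change -1.08, SE 0.12, limma adjusted p 7.6e-05), a call lost under quantile normalization at -0.79 and without D5-LSKCD201+ replicate 3 at -0.96. Vegfa at -0.33 (limma adjusted p 0.00282) and Pgf at 0.10 (0.584) were not called. The counts were 4 higher and 1 lower of 7, where 44.7% of 13775 genes were called, 17.5% as higher and 27.2% as lower. Several marker lists moved with both comparisons. Of 8 blood markers 7 were lower and 1 higher in each, with sums of 78.5 to 84.0 FPKM in D5-LSKCD201+, 1307 to 1565 FPKM in fetal liver and 1552 to 1774 FPKM in bone marrow. Endothelial markers were higher for 9 of 11 against fetal liver and 10 of 11 against bone marrow. Stromal markers were higher for 6 and 7 of 8 tested, with sums of 94.6 to 100.4 FPKM against 12.4 to 15.4 FPKM and 7.06 to 7.89 FPKM, and pluripotent markers for 3 and 4 of 4 tested. Red cell markers gave 5 lower of 7 against fetal liver, and 3 higher and 3 lower of 6 against bone marrow. Visceral endoderm and hepatoblast markers gave 1 higher and 4 lower of 5 against fetal liver, and 1 higher and 1 lower of 2 against bone marrow. The higher one was Sox17 in both. The single trophoblast marker tested was lower in both. The part of these cells in the values was not tested.

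D5-LSKCD201- cells had part of this difference too. Both day 5 populations were set against the same fetal liver and bone marrow libraries, so their comparisons are not independent. Against FL-LSKCD201+, Flt1 was higher by 4.24 (SE 0.14), Kdr by 2.03 (SE 0.14), Pgf by 1.5 (SE 0.25) and Vegfa by 1.37 (SE 0.35), with limma adjusted p of 4.0e-07, 1.3e-05, 0.00126 and 0.0103. Flt4 was not tested there, since its mean lay under the minimum, and Vegfb and Vegfc were not called. The 4 of 6 tested genes called higher stand beside 37.3% of 14336 genes called, 18.6% as higher and 18.7% as lower. With the closest pair of libraries in each group averaged, a step added after the data were seen, the Vegfa difference was 1.08 with an adjusted p of 0.0804. Against BM-LSKCD201+, Flt1 was higher by 4.62 (SE 0.12) and Kdr by 2.33 (SE 0.18), with limma adjusted p of 6.6e-08 and 1.3e-05. Vegfc had a log2 fold change of -1.16 (SE 0.19, limma adjusted p 0.000889), which was -0.98 and no longer called without D5-LSKCD201- replicate 2. Vegfb, at -0.87 with all libraries, was called at -1.01 without D5-LSKCD201- replicate 3. The counts were 2 higher and 1 lower of 7, where 49.3% of 14515 genes were called, 23.0% as higher and 26.3% as lower. Several marker lists moved with both comparisons. The 7 pluripotent markers were all called higher in D5-LSKCD201-, with sums of 3481 to 3909 FPKM against 5.35 to 10.1 FPKM in fetal liver and 0 to 10.2 FPKM in bone marrow. Trophoblast markers gave 3 higher of 4 tested in each, with sums of 31.0 to 64.1 FPKM against 1.37 to 1.81 FPKM and 5.24 to 6.36 FPKM. Blood markers gave 7 and 8 lower of 8, and endothelial markers gave 6 lower of 11 in each, with 1 higher against fetal liver and 3 higher against bone marrow. Stromal markers gave 7 and 6 higher of 8 tested, with 1 lower against fetal liver. Red cell markers gave 1 higher and 5 lower of 7 against fetal liver, with sums of 78.9 to 147 FPKM against 13406 to 27406 FPKM, and 2 higher and 2 lower of 6 against bone marrow. Visceral endoderm and hepatoblast markers gave 2 higher and 4 lower of 6 against fetal liver, and 4 higher and 1 lower of 5 against bone marrow. The part of these cells in the values was not tested.

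Between the 2 animal populations Vegfa and Pgf were lower in fetal liver, and no other member was called. Vegfa was 3.05 times as high in bone marrow as in fetal liver, a log2 fold change of -1.53 for fetal liver against bone marrow (SE 0.16, limma adjusted p 0.00018). Pgf was 4.24 times as high in bone marrow, with a log2 fold change of -1.32 (SE 0.23, limma adjusted p 0.00226). Vegfb at -0.49 (0.017) and Vegfc at -0.53 (0.0361) were under the fold threshold, with adjusted p of up to 0.1 and 0.143 under the alternatives, and Kdr at 0.30 (0.171) was not called. Flt1 and Flt4 were under the minimum level and were not tested. Of the 5 tested genes 2 were lower and none higher, where 19.1% of 13503 genes were called, 11.3% as lower and 7.78% as higher. Markers of red cells, at 13406 to 27406 FPKM in fetal liver and 153 to 212 FPKM in bone marrow, moved with this comparison. So did markers of visceral endoderm and hepatoblasts, with 5 of 5 tested called higher. They summed to 344 to 518 FPKM in fetal liver and 6.17 to 9.82 FPKM in bone marrow. Endothelial markers gave 3 higher and none lower of 11, and blood markers 1 higher and 2 lower of 8. Stromal markers gave 1 higher and 1 lower of 4 tested. The single trophoblast marker tested was lower in fetal liver, with list sums of 1.37 to 1.81 FPKM there and 5.24 to 6.36 FPKM in bone marrow. The part of these cells in the Vegfa and Pgf values was not tested.

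The mESC libraries give the level before differentiation. D5-LSKCD201+ cells were higher than mESC by 6.87 for Kdr (SE 0.06), 5.87 for Flt1 (SE 0.08), 3.58 for Flt4 (SE 0.08), 2.97 for Vegfc (SE 0.11), 2.36 for Vegfa (SE 0.11) and 1.67 for Pgf (SE 0.14), with limma adjusted p of at most 2.9e-06, and Vegfb at 0.14 (limma adjusted p 0.239) was not called. These 6 of 7 stand beside 37.6% of 13441 genes called, 19.5% as higher and 18.1% as lower. In D5-LSKCD201- against mESC, Flt1 was higher by 4.44 (SE 0.12), Kdr by 2.74 (SE 0.12), Vegfa by 2.53 (SE 0.33) and Pgf by 1.76 (SE 0.15), with limma adjusted p of at most 0.000587. Flt4 had a log2 fold change of 0.10 (95% interval -0.21 to 0.42) and Vegfc of -0.62 (-1.01 to -0.24), neither of them called. These 4 of 7 stand beside 14.3% of 13596 genes called, 10.9% as higher and 3.48% as lower. The 2 day 5 populations share the same mESC libraries, so these 2 comparisons are not independent. BM-LSKCD201+ cells were higher than mESC for Vegfa by 2.69 (SE 0.12), Pgf by 1.58 (SE 0.10) and Vegfb by 1.21 (SE 0.08), with limma adjusted p of at most 2.8e-06, 3 of the 4 members tested beside 53.1% of 14105 genes called, 30.7% as higher and 22.4% as lower. The Vegfb call was lost under quantile normalization, at 0.82. FL-LSKCD201+ cells were higher for Vegfa by 1.17 (SE 0.18, limma adjusted p 0.000687), 1 of the 5 members tested beside 42.3% of 13937 genes called, 24.2% as higher and 18.1% as lower. That call was also lost under quantile normalization, at 0.88. Endothelial markers, which summed to 68.9 to 75.1 FPKM in mESC, moved with these comparisons, with 11 of 11 called higher in D5-LSKCD201+, 7 of 11 in D5-LSKCD201-, 9 of 11 in FL-LSKCD201+ and 7 of 10 tested in BM-LSKCD201+. Blood markers, at 23.9 to 25.8 FPKM in mESC, were higher for 8 of 8 in both animal groups, for 2 of 5 tested in D5-LSKCD201+ and for 3 of 7 tested in D5-LSKCD201-. Pluripotent markers were lower for 7 of 7 in each group but D5-LSKCD201-, where 3 of 7 were. Stromal markers were higher for 7 of 8 tested in both day 5 groups, and trophoblast markers for 3 of 4 tested in D5-LSKCD201-. Red cell markers, at 19.5 to 25.2 FPKM in mESC, were higher for 7 of 7 in FL-LSKCD201+, 3 of 4 tested in BM-LSKCD201+, 3 of 5 tested in D5-LSKCD201+ and 3 of 6 tested in D5-LSKCD201-. Visceral endoderm and hepatoblast markers, at 0.920 to 1.08 FPKM in mESC, were higher for 5 of 5 tested in FL-LSKCD201+ and 4 of 4 in D5-LSKCD201-. The single one tested in D5-LSKCD201+, Sox17, was higher, as was the single one tested in BM-LSKCD201+. The part of these cells in the values was not tested.

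The neuropilins Nrp1 and Nrp2, coreceptors that present VEGF proteins to Kdr and Flt4, were read beside the 7 genes. Nrp1 was at 90.7, 90.7 and 89.6 FPKM in D5-LSKCD201+, at 16.5, 16.1 and 15.9 FPKM in D5-LSKCD201-, and at most 1.66 FPKM in the other sorted groups. Nrp2 was at 20.5, 19.5 and 18.8 FPKM in D5-LSKCD201+, at 3.10, 2.28 and 3.19 FPKM in D5-LSKCD201-, and at most 1.27 FPKM elsewhere. Both were higher in CD201+ than in CD201- cells, by 2.41 (SE 0.05, limma adjusted p 7.7e-08) and 2.43 (SE 0.12, limma adjusted p 2.3e-06) on the log2 scale. Vegfd, the other ligand of Flt4, was listed at 0 in each fetal liver and bone marrow library and reached at most 0.723 FPKM in the other sorted groups.

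The coculture comparison asks what growth on OP9 adds over gelatin. Kdr was at 24.4, 29.2 and 17.0 FPKM in the 3D+OP9 libraries and at 13.4, 6.88 and 7.47 FPKM in the 3D+0.1% gelatin libraries. Flt4 was at 6.11, 5.86 and 5.04 FPKM on OP9 and at 2.31, 1.80 and 1.68 FPKM on gelatin. Flt1 was at 16.1, 15.9 and 6.02 FPKM on OP9 and at 6.34, 5.42 and 4.43 FPKM on gelatin. The groups did not overlap for Kdr and Flt4, and for Flt1 the third OP9 library fell within the gelatin range. Vegfc was at 6.34, 7.22 and 6.36 FPKM on OP9 and at 5.03, 3.53 and 3.42 FPKM on gelatin, also without overlap. Vegfa was at 30.8, 30.5 and 24.9 FPKM on OP9 and at 25.6, 13.7 and 14.1 FPKM on gelatin, with overlap. Pgf was at 2.33, 2.12 and 2.54 FPKM against 2.08, 1.77 and 1.57 FPKM, and Vegfb, the most abundant ligand, at 62.8, 63.8 and 77.4 FPKM against 76.3, 47.8 and 60.2 FPKM. Pgf did not overlap by a narrow margin, and Vegfb did.

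**Figure D5:**
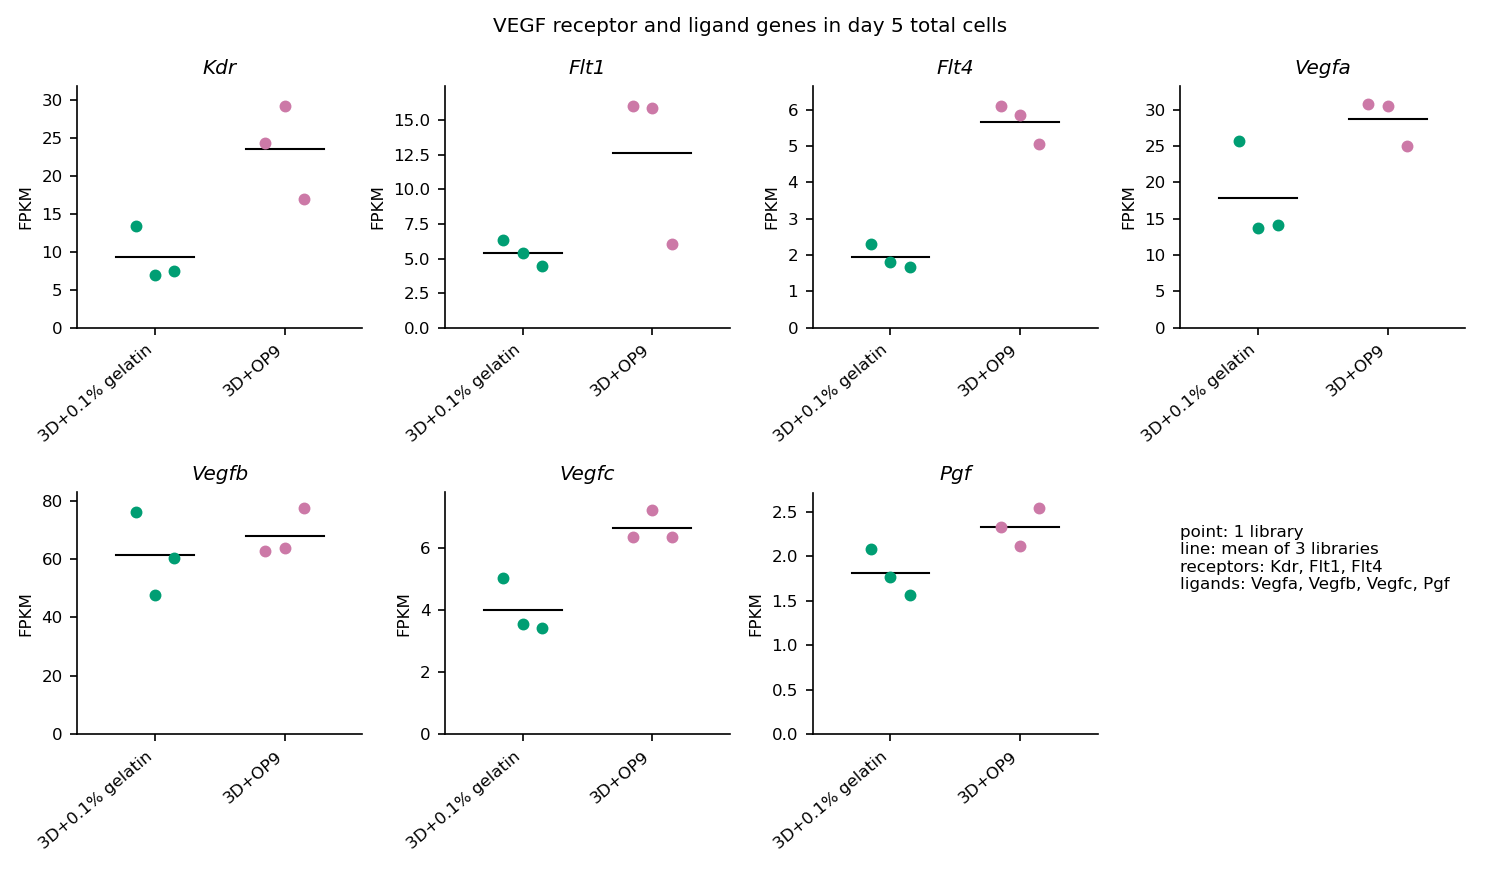
FPKM of the 7 genes in the 6 coculture libraries, with a point for each library and a line at each group mean of 3. Flt4 shows the clearest gap, at 5.04 to 6.11 FPKM on OP9 and 1.68 to 2.31 FPKM on gelatin, and the Vegfb points of the groups mix.

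Of the 3 receptors, 2 passed the test on OP9 against gelatin. Flt4 was 2.94 times as high on OP9 (5.67 ± 0.560 against 1.93 ± 0.335 FPKM, SD, n = 3), with a log2 fold change of 1.19 (SE 0.13, limma adjusted p 0.00315), and stayed called in the 12 alternatives tried, with adjusted p from 0.00168 to 0.0255. Kdr was 2.55 times as high (23.5 ± 6.15 against 9.24 ± 3.59 FPKM), with a log2 fold change of 1.28 (SE 0.27, limma adjusted p 0.0317). That call held in 6 of 12 alternatives. The limma adjusted p was 0.0547 with no filter on low genes, 0.105 with the closest pair averaged, 0.106 without 3D+OP9 replicate 1, 0.109 without 3D+OP9 replicate 2, 0.138 without 3D+0.1% gelatin replicate 2 and 0.106 without 3D+0.1% gelatin replicate 3, while the log2 fold change stayed between 1.11 and 1.55. Vegfc had a log2 fold change of 0.63 (SE 0.15, limma adjusted p 0.0495), under the fold threshold. Flt1 at 0.99 (SE 0.34, 0.133), Vegfa at 0.71 (SE 0.23, 0.117), Pgf at 0.25 (SE 0.12, 0.285) and Vegfb at 0.16 (SE 0.17, 0.620) were not called. Without 3D+OP9 replicate 3, the library that stood apart, Flt1 was called at 1.42 (limma adjusted p 0.00141). Of the 7 genes 2 were called higher and none lower, where 2.62% of 12958 genes were called, 2.11% as higher and 0.509% as lower. The groups of 4 members did not overlap, as was so for 28.7% of all genes tested. The number of called genes ranged from 209 without 3D+0.1% gelatin replicate 2 to 444 without 3D+OP9 replicate 3, against 339 with all libraries.

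The Flt1 to Kdr ratio was 0.660, 0.544 and 0.354 on OP9 and 0.474, 0.788 and 0.593 on gelatin, so it overlapped (exact two-sided permutation p 0.5). Kdr made up 56.7% and 54.8% of the receptor sum on OP9 and on gelatin, and the sum was 41.9 FPKM on OP9 and 16.6 FPKM on gelatin. Nrp1 was at 23.1, 25.9 and 9.60 FPKM on OP9 and at 8.95, 5.66 and 6.03 FPKM on gelatin, with a log2 fold change of 1.29 (SE 0.35, limma adjusted p 0.0736). Like Flt1 it was lower in the third OP9 library, and without that library its log2 fold change was 1.71 with a limma adjusted p of 0.00168. Blocking on the replicate number also put it under the threshold, at 0.0331. Whether the numbers pair these libraries is not known, as same-numbered ones correlated at 0.182, 0.0724 and 0.291. Nrp2 had a log2 fold change of 0.50 (0.275) and Vegfd of -0.19 (0.463), neither called. Endothelial markers summed to 134 to 156 FPKM on OP9 and 26.8 to 41.1 FPKM on gelatin, with 8 of 11 called higher. Stromal markers, which OP9 cells express, summed to 74.3 to 85.5 FPKM on OP9 and 44.8 to 55.8 FPKM on gelatin, with 3 of 9 tested called higher. Red cell markers summed to 210 to 762 FPKM and 4.44 to 21.8 FPKM, with 4 of 6 tested called higher. Blood markers summed to 17.5 to 22.5 FPKM and 5.39 to 6.43 FPKM, with 3 of 5 tested called higher and Ptprc near 0 in both groups. Of 7 pluripotent markers 2 were called higher on OP9, Esrrb at 33.1 against 2.08 FPKM and Zfp42 at 40.1 against 5.5 FPKM, while their sum overlapped at 785 to 1358 FPKM and 1168 to 1264 FPKM. The part of these cells in the Kdr and Flt4 values was not tested.

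Genes downstream and upstream of the receptors were read from 4 lists written from background knowledge. Of 54 tested genes of VEGF receptor signalling, 12 were called higher and 5 lower in D5-LSKCD201+ against D5-LSKCD201-, with a median log2 fold change of 0.36 against -0.12 over all genes tested, of which 10.8% were called higher and 13.9% lower. Nos3, the endothelial nitric oxide synthase, was higher by 4.85 (117 against 3.26 FPKM) and Cdh5 by 4.44, whereas Hspb1, a small heat shock protein that is phosphorylated downstream of Kdr, had a log2 fold change of -5.38 (10.6 against 482 FPKM). Of 18 tested genes known to be induced by VEGF, 7 were higher and none lower, with a median of 0.54. Dll4, a Notch ligand, led with 4.24 (39.3 against 1.14 FPKM), followed by the transcription factor Ets1 with 3.29 and the protease Adamts1 with 3.01. Of 22 tested factors known to act on Kdr regulatory elements, 16 were higher and 2 lower, with a median of 2.02, led by Sox18 at 4.47, Elk3 at 3.92 and Fli1 at 3.57. Ets1 is in both of the last 2 lists, Cdh5 is also an endothelial marker, and Sox17, a Kdr factor, is also on the visceral endoderm and hepatoblast list. Of 11 tested genes of the hypoxia-inducible factor (HIF) pathway, which controls Vegfa, 2 were higher and none lower, with a median of 0.29. They were Epas1, which encodes HIF-2 alpha, at 3.37 (25.3 against 1.68 FPKM), and Hif3a at 1.12, which was at 0.97 and not called without D5-LSKCD201- replicate 2.

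Against FL-LSKCD201+, where 15.1% of all genes were called higher and 19.6% lower with a median of -0.16, 13 of 56 tested signalling genes were higher in D5-LSKCD201+ and 15 lower, with a median of 0.03, led by Nos3 at 5.77, the adaptor Bcar1 at 5.62 and Cdh5 at 5.09. Of 18 VEGF-induced genes 9 were higher and 4 lower, with a median of 0.95, led by Adamts1 at 3.93, Ets1 at 3.55 and Dll4 at 3.44. The Kdr factors gave 10 higher and 5 lower of 22 and a median of 0.86, with Sox7 at 5.72 and Etv2, the factor that starts the blood and endothelial program, at 5.43, and Gata1, the red cell factor, at -4.92. The HIF list gave 3 higher and 2 lower of 11 and a median of 0.33, with Epas1 at 4.44, Crebbp at -1.48 and Egln3 at 1.40. Against BM-LSKCD201+, where 17.5% of all genes were called higher and 27.2% lower with a median of -0.23, 11 of 55 signalling genes were higher and 16 lower with a median of 0.09. There 8 of 19 VEGF-induced genes were higher and 7 lower with a median of -0.58, below that of all genes, the Kdr factors gave 11 higher and 4 lower of 22 with a median of 0.93, and the HIF list 3 higher and 2 lower of 11 with a median of 0.12. Between fetal liver and bone marrow, where 7.78% of all genes were called higher and 11.3% lower with a median of -0.13, 6 of 16 tested VEGF-induced genes were lower in fetal liver and 1 higher, with a median of -0.73. The immediate early genes Nr4a1 at -4.57 and Egr1 at -3.92 led them, with the phosphatase Dusp5 at -1.84. The signalling list gave 4 higher and 2 lower of 52 and a median of 0.02, led by Sphk1 at 2.75 and Hras at 1.18. The Kdr factors gave 3 higher and 3 lower of 17 and a median of -0.29, with Gata1 at 4.14, Sox18 at 3.23 and Sox17 at 2.44, and the HIF list 1 higher of 10, Hif3a at 1.81, and a median of -0.14.

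In the coculture, 9 of 22 tested Kdr factors were higher on OP9 and none lower, with a median of 0.99 against 0.01 over all genes tested, of which 2.11% were called higher and 0.509% lower, led by Tal1 at 2.19, Sox18 at 2.16 and Gata1 at 2.13. Of 53 tested signalling genes 4 were higher and none lower, with a median of -0.01. Cdh5 was higher by 3.49, the integrin subunit Itgb3 by 1.97 and Nos3 by 1.96. Of 17 tested VEGF-induced genes 1 was higher, Dll4 at 1.28, with a median of 0.11. The Dll4 call was lost with the closest pair averaged and without any one of 3D+OP9 replicates 1 and 2 and 3D+0.1% gelatin replicates 2 and 3, with limma adjusted p between 0.062 and 0.0883. No gene of the HIF list was called among 12 tested by limma, and 1 had an unadjusted p under 0.05.

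The genes whose pattern over the 15 sorted libraries was most like that of each member were ranked by Pearson correlation of log2(FPKM + 1) over 12923 genes, as a description without a test, since the libraries share 5 groups. For Kdr these were Tubb2a, Kcne3 and Plac1, each at 0.995. For Flt1 they were Fam163a and Cdh13 at 0.997 and Col23a1 at 0.995, and for Flt4 Magel2 at 0.996, RP23-381H23.2 at 0.995 and Brinp1 at 0.994. For Vegfc they were Ehd3 at 0.980, Pde8a at 0.97 and Stim2 at 0.969. The other ligands had looser matches, with Ptov1 at 0.955 leading for Vegfa, Hexdc at 0.963 for Vegfb and Tmed7 at 0.957 for Pgf. Among the members themselves, Kdr correlated with Flt4 at 0.944 and with Flt1 at 0.930, Vegfc with Flt4 at 0.901 and with Kdr at 0.788, and Vegfa with Pgf at 0.833.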

How the data were processed

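Total RNA was extracted with TRIzol and sequenced as paired-end libraries. Per the submitters' processing notes, the authors used HISAT2 2.0.5 and StringTie 1.3.3, and they name GRCm38 as well as a further build. The deposited values are FPKM per gene, made by the authors in 2 tables that were normalized separately, so no test crosses them. Of 22899 coculture rows, 3578 are blank and 19321 were used. For each of 11 comparisons, the 3 libraries of both groups were fitted with limma 3.58.1 (R 4.3.3, with trend) on log2(FPKM + 1), after a filter of mean 0.5 FPKM, and p-values were adjusted over all genes tested. Same-numbered BM-LSKCD201+ and FL-LSKCD201+ libraries deviated together (r = 0.248, 0.204 and 0.167), so a replicate block was tried. The scripts were tested on simulated data. The named genes are the 7 members, Nrp1, Nrp2 and Vegfd, and in the main comparisons the called genes of each list with the largest changes, except one item that is not reported here. The members and lists were chosen with earlier results of these data known. Alternatives were another pseudocount (0.1), no filter, a filter of 1 FPKM, quantile normalization, a replicate block, a fit over 5 groups and leaving out each library; averaging the closest pair was added after seeing the data. Some deposited columns name each gene's annotation and were not used. Sequences are from RefSeq.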

Additional observations from a re-analysis of the deposited data

How the results depend on the processing

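Of 881 values of the members under alternatives, 850 kept their direction and their side of the threshold. In D5-LSKCD201+ against D5-LSKCD201-, Kdr, Flt1, Flt4 and Vegfc were called under all 13 alternatives, with a largest limma adjusted p of 0.000144. The cause of the following shifts was not tested. In 3D+OP9 against 3D+0.1% gelatin, a pseudocount of 0.1 called 531 genes instead of 339, and leaving out a library gave 209 to 444. The number of VEGF genes called there was 2, and it was 1 with no filter, 1 with the closest pair averaged and 1 to 3 leaving out a library. In FL-LSKCD201+ against mESC it was 1, and it was 2 with a pseudocount of 0.1, when Kdr was called at 1.87, and 0 with quantile normalization, when Vegfa was at 0.88. Of the 7 members' values 14 changed sign, each for a gene that was not called, and Vegfd, not a member, is given beside them. Quantile normalization gave 0.020 for Pgf and 0.31 for Vegfd in D5-LSKCD201+ against D5-LSKCD201-, -0.17 for Flt4 in D5-LSKCD201- against mESC, 0.0067 for Vegfa in D5-LSKCD201- against BM-LSKCD201+ and -0.27 for Vegfc in FL-LSKCD201+ against mESC. The last value was -0.00013 with a pseudocount of 0.1. With the closest pair averaged, Vegfa was at 0.036 and Vegfd at 0.017 in D5-LSKCD201+ against D5-LSKCD201-. Leaving out a library gave ranges of -0.59 to 0.054 for Vegfa, -0.20 to 0.089 for Pgf and -0.11 to 0.046 for Vegfd in that comparison, -0.0025 to 0.33 for Vegfb in 3D+OP9 against 3D+0.1% gelatin, -0.39 to 0.26 for Vegfa in D5-LSKCD201- against BM-LSKCD201+ and -0.14 to 0.11 for Vegfc in FL-LSKCD201+ against mESC. Other calls that moved were Vegfc in D5-LSKCD201- against BM-LSKCD201+ (-0.89, not called) and Vegfb in BM-LSKCD201+ against mESC (0.82, not called), both under quantile normalization, and Flt4 in D5-LSKCD201- against BM-LSKCD201+ (1.5, called) with a pseudocount of 0.1. Quantile normalization moved the median of all genes by over 0.1 in 8 comparisons, for example from -0.12 to -0.01 in D5-LSKCD201+ against D5-LSKCD201- and from 0.23 to -0.06 in BM-LSKCD201+ against mESC. With the replicate number as a block, no count of called VEGF genes changed, and the genes called were 2607 instead of 2581 in FL-LSKCD201+ against BM-LSKCD201+ and 379 instead of 339 in 3D+OP9 against 3D+0.1% gelatin. Only the first pair of groups met the rule for pairing; same-numbered coculture libraries correlated at 0.182, 0.0724 and 0.291. Differences in genes under 0.5 FPKM, such as Flt1 and Flt4 between the animal groups, could not be judged at this level.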
